A study of Mus musculus with 9 samples.

Results

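The replication-dependent histone genes of the mouse lie in the Hist1, Hist2, Hist3 and Hist4 gene clusters and encode the core histones H2A, H2B, H3 and H4 and the linker histone H1. The members were the protein-coding genes whose symbols in the GENCODE M21 annotation begin with Hist1h, Hist2h, Hist3h or Hist4h, without the testis variants Hist1h1t, Hist1h2aa and Hist1h2ba. This rule gave 62 of the 32035 genes measured, namely 5 H1, 17 H2A, 15 H2B, 12 H3 and 13 H4 genes, while Hist1h2bh and Hist1h2bm were not analysed here. On the mouse genome build GRCm38, 49 members lie in the Hist1 cluster (chr13:21715763-23764406), 10 in Hist2 (chr3:96219865-96270132), 2 in Hist3 (chr11:58948920-58956830) and 1, Hist4h4, in Hist4 (chr6:136801553-136804415). RNA was sequenced from whole testes of male C57Bl6/N mice aged 15 weeks, with 3 wild-type (WT), 3 Kpna6 ΔIBB/ΔIBB and 3 Kpna6-/- samples. Kpna6 encodes importin α7, an adaptor that links cargo proteins to importin β for transport into the nucleus. In Kpna6 ΔIBB/ΔIBB mice the second exon is deleted and the remaining mRNA gives a truncated protein without the importin β binding domain. In Kpna6-/- mice a gene trap sits in the first intron, and the labels describe the protein as lost. The study's text describes full-length protein that germ cells still make from another first exon. It describes the protein as absent from Sertoli cells and from other organs. Both lines had been backcrossed to C57Bl6/N. The labels do not tie each sample to an animal of its own, so the p-values below measure the spread between these samples.

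Replication-dependent histone mRNAs are made in S phase, when new DNA has to be packed into nucleosomes, each built around an octamer of the 4 core histones and closed by a linker histone. They normally carry no poly(A) tail and end instead a few bases after a conserved stem-loop, which is bound by the stem-loop binding protein and cut with the help of the U7 small nuclear ribonucleoprotein. Some of these genes also give longer, polyadenylated transcripts. In the testis DNA is replicated in spermatogonia and in spermatocytes before meiosis, and the histones are later replaced by testis variants, transition proteins and protamines. The libraries were made from RNA captured on poly-T beads, so the values below are those of the histone RNA that came through this capture and not of the whole histone mRNA pool.

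The stem-loops of members from each of the 5 histone classes are shown first, because they mark where these mRNAs normally end. They are written 5′ to 3′ as in the GENCODE M21 transcript models, with T for U, 5 bases on either side and the 16 bases of the stem-loop in capitals.
Hist2h2aa1 (H2A): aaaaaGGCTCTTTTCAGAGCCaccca
Hist3h2a (H2A): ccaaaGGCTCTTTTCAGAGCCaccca
Hist1h2bp-201 (H2B): acaaaGGCTCTTTTCAGAGCCaccca
Hist1h3a (H3): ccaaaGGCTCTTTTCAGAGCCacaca
Hist1h4a (H4): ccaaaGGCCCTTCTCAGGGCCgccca
Hist1h1c (H1): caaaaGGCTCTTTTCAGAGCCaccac
The models differed in how far they ran on after it. Those of Hist2h2aa1, Hist1h3a and Hist1h2bp-201 stopped 35, 37 and 38 bases past the stem-loop, whereas those of Hist1h4a, Hist1h1c and Hist3h2a continued for 108, 840 and 1643 bases. No stem-loop was found in the 150 bases after the stop codon of Hist2h2be, a transcript of 2620 bases with a poly(A) signal (AATAAA or ATTAAA) 16 bases before its end.

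Hist1h2bp, the H2B gene with the highest level, has 2 models that share 377 coding bases and then part. The coding ends are shown because nearly all of the gene's TPM lay on the second, with capitals from the first base that differs to the stop codon.
Hist1h2bp-201: tgtcaccaagtacaccagctccaaGTGA
Hist1h2bp-202: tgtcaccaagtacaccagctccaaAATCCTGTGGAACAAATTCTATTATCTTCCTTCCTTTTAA
Hist1h2bp-201 encodes 126 codons and ends after the stem-loop, whereas Hist1h2bp-202 encodes 138 codons, has no stem-loop, and carries AATAAA, in capitals in the next stretch, 17 bases before its end.
Hist1h2bp-202: acattataaaAATAAAggtttcaatc

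The Hist2h2aa1 and Hist2h2aa2 genes lie head to head on chromosome 3. The bases before them are shown because the Hist2h2aa2 transcript cannot be told from the end of Hist2h2aa1. The 528 bases of the Hist2h2aa2 model are the last 528 of the 586 bases of Hist2h2aa1. Below are 250 bases before the RefSeq start of each gene on GRCm38.p6, Hist2h2aa1 at chr3:96245247-96245496 on the plus strand and Hist2h2aa2 at chr3:96240375-96240624 on the minus strand, and the 223 bases before Hist1h2bp at chr13:21787238-21787460 on the plus strand. Capitals mark CCAAT and TATAAA on either strand, where ATTGG and TTTATA are the reverse complements.
Hist2h2aa1: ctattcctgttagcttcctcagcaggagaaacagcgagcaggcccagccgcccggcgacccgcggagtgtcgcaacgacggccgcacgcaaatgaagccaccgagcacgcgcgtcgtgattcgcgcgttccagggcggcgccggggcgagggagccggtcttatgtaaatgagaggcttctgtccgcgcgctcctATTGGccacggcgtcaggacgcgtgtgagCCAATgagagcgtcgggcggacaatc
Hist2h2aa2: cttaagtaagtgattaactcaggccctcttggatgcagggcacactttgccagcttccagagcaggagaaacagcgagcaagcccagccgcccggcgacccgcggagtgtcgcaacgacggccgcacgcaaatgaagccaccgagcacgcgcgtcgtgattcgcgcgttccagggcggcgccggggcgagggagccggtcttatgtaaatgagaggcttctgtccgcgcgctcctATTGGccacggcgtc
Hist1h2bp: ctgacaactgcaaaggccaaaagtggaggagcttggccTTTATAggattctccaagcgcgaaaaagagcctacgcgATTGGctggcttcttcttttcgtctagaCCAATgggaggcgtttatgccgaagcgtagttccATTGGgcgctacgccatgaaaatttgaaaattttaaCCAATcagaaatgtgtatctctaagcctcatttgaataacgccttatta
The Hist2h2aa1 and Hist2h2aa2 stretches share an identical run of 169 bases. The RefSeq start of Hist2h2aa2 lies 98 bases upstream of its GENCODE model, and that of Hist2h2aa1 at the start of its model. The stretches therefore do not end at matching bases, and bases nearer to the Hist2h2aa2 model are not shown. CCAAT lay in the 250 bases before the start of 46 of the 57 histone genes with a RefSeq promoter (80.7%), against 33.8% of the 32817 mouse promoters searched in the same way. For TATAAA the share was 47.4% of the histone genes (27 of 57) and 12.4% of all promoters. The classes differed, since CCAAT was missing before the H4 genes Hist1h4b, Hist1h4f, Hist1h4h, Hist1h4i, Hist1h4j, Hist1h4k, Hist1h4m, Hist1h4n and Hist4h4. It was found before the H4 genes Hist1h4a, Hist1h4c and Hist1h4d. The H3 genes Hist2h3c1 and Hist2h3c2 also lacked it. Windows of genes that start back to back, such as Hist1h2an and Hist1h2bp, overlap, so the same match can count for both. These matches are letters in a window and were not tested as binding sites.

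Levels are given as TPM, the deposited abundance per transcript corrected for its length and for the library total. Each library held between 24859751 and 31484692 estimated counts on genes. Kpna6 itself was listed at 98.3, 163 and 176 TPM in WT testes, 32.0, 34.2 and 34.8 in Kpna6 ΔIBB/ΔIBB and 134, 137 and 141 in Kpna6-/- testes. The log2 fold change of Kpna6 ΔIBB/ΔIBB against WT was -1.79, whereas Kpna6-/- and WT did not differ beyond their spread (log2 fold change -0.18, edgeR adjusted p = 0.586). Markers of testis cell types were all present. In Kpna6 ΔIBB/ΔIBB against WT, 10 of 10 Sertoli cell markers were higher (summed TPM 1333 to 1607 against 838 to 915) and 8 of 8 round spermatid markers (989 to 1144 against 1287 to 1428) and 8 of 8 elongating spermatid markers (56331 to 64594 against 67772 to 77837) were lower. Of 10 spermatogonium markers, 3 were higher and 1 lower (189 to 211 against 143 to 169), and of 6 macrophage markers 3 were higher (39.8 to 44.4 against 25.2 to 31.5). Among 8 leptotene to zygotene spermatocyte markers 2 were higher and 1 lower, and among 8 pachytene spermatocyte markers 2 were lower. Leydig cells had 2 of 6 markers higher, and peritubular and endothelial cells 2 of 6 higher and 1 lower. Over all genes tested, 17.7% were higher and 18.9% lower in this comparison. Kpna6-/- stood closer to WT, with 2 of 10 Sertoli markers higher (994 to 1070) and 1 of 10 spermatogonium markers lower (150 to 167). No spermatid marker and no marker of the other lists was called there, beside 1.60% of all genes. Their part in the histone values was not tested, and in whole testis fewer cells of a type and less RNA per cell cannot be told apart.

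The 62 histone genes were very unequal in level. Only 3 had a mean over the 9 samples of 100 TPM or more, 7 of 10 or more and 28 of 1 or more, while 34 lay under 1 TPM and 30 were listed at 0 in at least 1 sample. Hist2h2aa1 and Hist2h2aa2 together held between 71.2% and 80.0% of the summed histone TPM of a sample. With Hist1h2bp and Hist1h4a the share was 89.4% to 92.9%. A total of 27 members passed the count filter in at least 1 comparison and 35 in none. The highest mean among those 35 was 2.24 TPM, and for 29 members the estimated count lay under 10 in each of the 9 samples.

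H2A dominated the histone classes and was higher in both mutants. The 17 H2A genes summed to 1104, 1195 and 1284 TPM in WT testes, 1737, 1549 and 1660 in Kpna6 ΔIBB/ΔIBB and 1444, 1377 and 1345 in Kpna6-/- testes. Means were 1194 ± 89.7, 1649 ± 94.4 and 1389 ± 50.4 (SD, n = 3), and the samples of the 3 groups did not overlap. H2A made up 73.5% to 81.7% of all histone TPM, so the sum over all 62 genes had the same order, at 1575 ± 77.2, 2053 ± 81.8 and 1830 ± 48.1 TPM (SD, n = 3). The log2 ratio of this total between Kpna6 ΔIBB/ΔIBB and WT was 0.38 in TPM and 0.22 in CPM, counts scaled to library size by the trimmed mean of M-values (TMM). The order of Kpna6 ΔIBB/ΔIBB and Kpna6-/- in it depended on the scale, since their log2 ratio was 0.17 in TPM and -0.01 in TMM-scaled CPM. Without Hist2h2aa1 and Hist2h2aa2, the H2A genes summed to 33.5, 32.3 and 31.9 TPM in WT testes, 37.5 to 39.6 in Kpna6 ΔIBB/ΔIBB and 40.4 to 42.7 in Kpna6-/- samples.

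H2B and H3 had another order. The 15 H2B genes summed to 198 ± 6.67 TPM in WT testes, 190.5 ± 15.7 in Kpna6 ΔIBB/ΔIBB and 228 ± 6.73 in Kpna6-/- (SD, n = 3), and every Kpna6-/- sample (220 to 232) lay above every sample of the other groups (172 to 203). The 12 H3 genes were likewise highest in Kpna6-/-, with 36.3 ± 3.90, 34.1 ± 3.41 and 44.3 ± 1.48 TPM (SD, n = 3), where Kpna6-/- samples lay apart (42.7 to 45.4) and WT (31.8 to 39.0) and Kpna6 ΔIBB/ΔIBB (31.2 to 37.9) overlapped. The H3 difference between Kpna6 ΔIBB/ΔIBB and WT had no stable sign, with a log2 ratio of -0.09 in TPM and 0.01 in TMM-scaled CPM. H4 was higher in Kpna6 ΔIBB/ΔIBB (169 ± 5.86 TPM) and in Kpna6-/- (158 ± 4.08) than in WT (140 ± 7.24; SD, n = 3). The log2 ratio of Kpna6 ΔIBB/ΔIBB against WT was 0.28 in TPM but 0.076 in TMM-scaled CPM. For H4 the ratio between the mutants was 0.10 in TPM and -0.06 in TMM-scaled CPM, so their order depended on the scale. The 5 H1 genes summed to 8.55, 6.34 and 6.32 TPM in WT testes, 10.0, 11.5 and 9.41 in Kpna6 ΔIBB/ΔIBB and 9.83, 9.77 and 10.7 in Kpna6-/- testes, and all 6 mutant samples lay above WT. Most of the H1 sum came from Hist1h1c, since Hist1h1a was at 1.69 to 3.20 TPM in WT testes, 1.80 to 2.62 in Kpna6 ΔIBB/ΔIBB and 2.22 to 3.84 in Kpna6-/-, and Hist1h1b, Hist1h1d and Hist1h1e were near or under 1 TPM in every sample. In log2 ratios of TPM sums against WT, Kpna6 ΔIBB/ΔIBB had 0.54 for H1, 0.47 for H2A, -0.05 for H2B, -0.09 for H3 and 0.28 for H4. For Kpna6-/- against the same WT samples the ratios were 0.51, 0.22, 0.21, 0.29 and 0.18, with no sign that changed in TMM-scaled CPM.

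**Figure D1:**
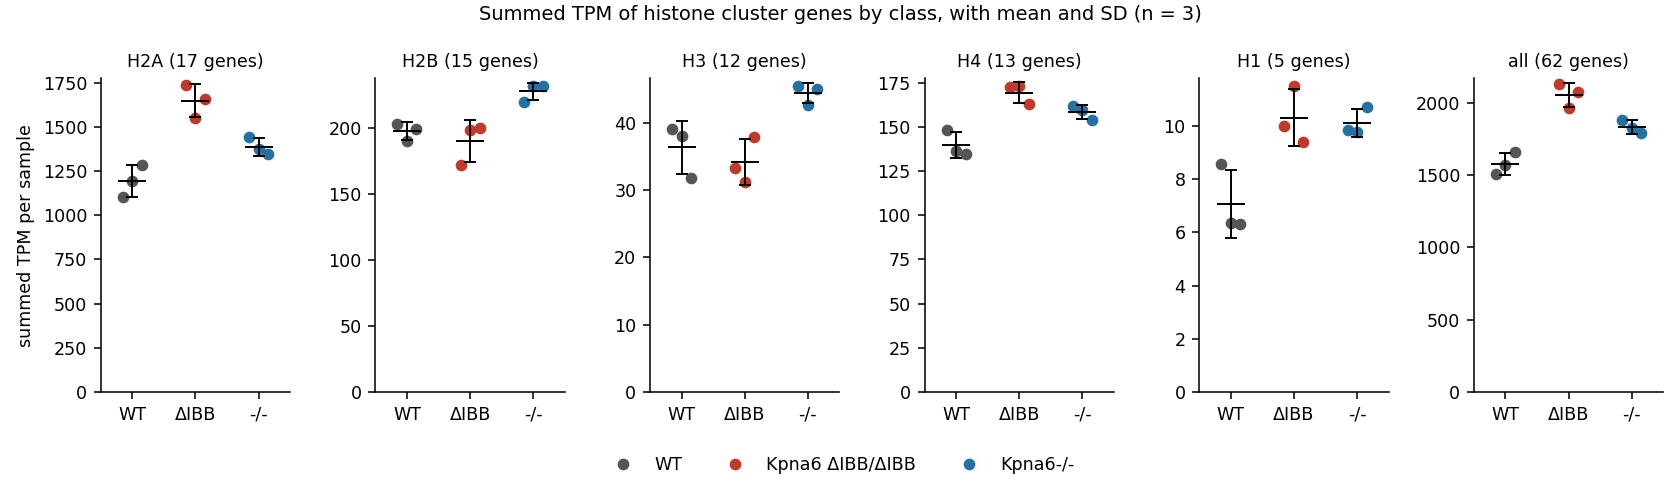
Summed TPM per sample of the H2A, H2B, H3, H4 and H1 genes and of all 62 histone genes, each panel with its own axis from 0. Points are single testes (WT, Kpna6 ΔIBB/ΔIBB, Kpna6-/-) and the black marks are the mean and SD (n = 3). H2A in Kpna6 ΔIBB/ΔIBB lies between 1549 and 1737 TPM, above all other samples, whereas H2B and H3 are highest in Kpna6-/-.

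H2A and H2B genes are often arranged back to back with a shared stretch of DNA between their starts, and 11 such pairs were found, with 175 to 301 bases between the annotated starts. The partners' levels differed widely in some pairs. Hist1h2bp had a mean of 160 TPM and its H2A partner Hist1h2an 0.833 TPM, with 242 bases between them. For Hist1h2bc and Hist1h2ac, 250 bases apart, the means were 21.8 and 0.310 TPM. Hist2h2be (13.6 TPM) and Hist2h2ac (5.43 TPM) were closer to each other, and in the pair of Hist1h2ag (6.86 TPM) and Hist1h2bj (3.33 TPM) the H2A gene had the higher level. Reads of near-identical copies can be split among them, so levels under 1 TPM are uncertain.

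**Figure D2:**
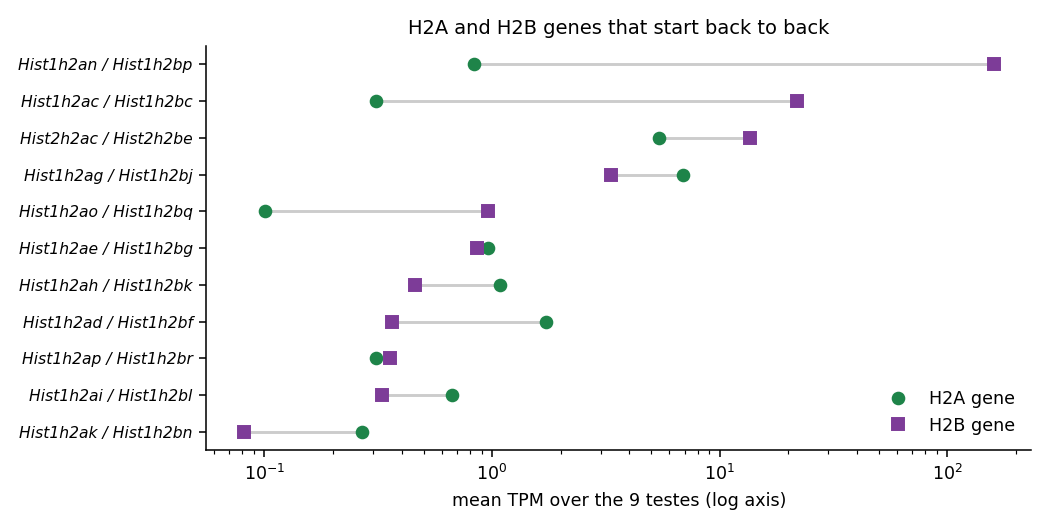
Mean TPM over the 9 testes (log axis) of the 11 pairs of H2A genes (circles) and H2B genes (squares) that start back to back. A grey line joins the partners. The longest lines are those of Hist1h2an and Hist1h2bp (0.833 and 160 TPM) and of Hist1h2ac and Hist1h2bc (0.310 and 21.8 TPM).

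Kpna6 ΔIBB/ΔIBB was compared with WT first, to ask which histone genes differ in testes that make only the truncated importin α7. Of the 25 histone genes that passed the count filter, 7 rose and 1 fell (edgeR quasi-likelihood test, Benjamini-Hochberg adjusted p under 0.05), that is 8 of 25, beside 36.6% of all 18797 genes tested (17.7% higher and 18.9% lower). At an unadjusted p under 0.05 there were 10 of 25, beside 45.9% of all genes. The share of histone genes called was thus near the background. A member could pass the filter through the group in which it was high, so these counts and the median log2 fold change of 0.26 (0.00898 over all genes) are a description. The histone genes that rose were Hist2h2aa1, Hist2h2aa2, Hist1h2bc, Hist1h1c, Hist1h4h, Hist1h2be and Hist3h2a, and Hist1h2bp fell.

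The Hist2h2aa genes, 2 copies of an H2A gene on chromosome 3, had the highest level. Hist2h2aa1 (chr3:96245497-96246082, plus strand) was listed at 1071, 1162 and 1252 TPM in WT testes, 1466, 1434 and 1515 in Kpna6 ΔIBB/ΔIBB and 1401, 1298 and 1302 in Kpna6-/- samples. All mutant samples lay above WT, and the log2 fold change of Kpna6 ΔIBB/ΔIBB against WT was 0.22 (SE 0.05, edgeR adjusted p = 0.00747). Hist2h2aa2 (chr3:96239749-96240276, minus strand) was at 0.000, 0.023 and 0.002 TPM in WT testes, at 233, 77.3 and 105 in Kpna6 ΔIBB/ΔIBB and at 0.629, 38.6 and 0.000 in Kpna6-/- samples. All of its 31-base words occur in other genes as well, so no fold is given and the pair was read as a sum. That sum was 1071, 1162 and 1252 TPM in WT testes, 1699, 1512 and 1621 in Kpna6 ΔIBB/ΔIBB and 1402, 1337 and 1302 in Kpna6-/- testes. Kpna6 ΔIBB/ΔIBB samples lay above both other groups, with a log2 fold change against WT of 0.32 (SE 0.05, edgeR adjusted p = 0.00116).

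Among H2B genes, directions differed. Hist1h2bp (chr13:21787461-21789213, plus strand) was at 165, 156 and 173 TPM in WT testes, 127, 138 and 151 in Kpna6 ΔIBB/ΔIBB and 168, 174 and 184 in Kpna6-/- samples. The Kpna6 ΔIBB/ΔIBB samples were lower than all others, and the gene fell by 0.38 on the log2 scale (SE 0.07, edgeR adjusted p = 0.00139). Hist1h2bp-202, the longer coding form, held between 96.2% and 98.7% of the gene's TPM in every sample, at 161, 151 and 171 TPM in WT testes, 125, 135 and 145 in Kpna6 ΔIBB/ΔIBB and 164, 168 and 179 in Kpna6-/- testes. Hist1h2bc (chr13:23684199-23692908, plus strand) moved the other way, from 15.5, 11.1 and 7.29 TPM in WT to 23.5, 34.7 and 25.1 in Kpna6 ΔIBB/ΔIBB and 26.1, 30.1 and 22.7 in Kpna6-/-. No mutant sample overlapped WT, and the log2 fold change was 1.17 (SE 0.23, edgeR adjusted p = 0.00277). Hist1h2be, whose model overlaps Hist1h1e on the same strand, had estimated counts of only 7.57 to 29.5 and rose by 1.15 (SE 0.37, edgeR adjusted p = 0.0315). It lay at 0.173 to 0.580 TPM over the samples. The largest part of its mean, 0.212 TPM, was on Hist1h2be-203, a model with no stop codon, against 0.084 on each of its coding models. Hist2h2be was at 12.2 to 13.8 TPM in WT and 12.8 to 13.9 in Kpna6 ΔIBB/ΔIBB and did not pass the test (log2 fold change -0.12, or 0.00 with limma on TPM, edgeR adjusted p = 0.186).

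In the other classes, the linker histone gene Hist1h1c (chr13:23738808-23740367, plus strand) was at 4.58, 3.36 and 4.25 TPM in WT testes, 6.84, 8.73 and 6.19 in Kpna6 ΔIBB/ΔIBB and 5.74, 6.39 and 6.38 in Kpna6-/- testes. All mutant samples were above WT, and it rose by 0.71 in Kpna6 ΔIBB/ΔIBB (SE 0.16, edgeR adjusted p = 0.00491). Hist1h4h (chr13:23531050-23531519, plus strand), an H4 gene, went from 7.13, 7.89 and 6.10 TPM to 13.7, 13.6 and 10.7, with 10.6, 8.94 and 7.97 in Kpna6-/-, and no Kpna6 ΔIBB/ΔIBB sample overlapped WT (log2 fold change 0.71, SE 0.21, edgeR adjusted p = 0.0247). Hist1h4a (chr13:23760692-23761230, minus strand), the H4 gene with the highest level, was at 119, 110 and 115 TPM in WT testes, 135, 131 and 130 in Kpna6 ΔIBB/ΔIBB and 122, 118 and 120 in Kpna6-/- samples. Its groups did not overlap in TPM between Kpna6 ΔIBB/ΔIBB and WT, yet the TMM-scaled log2 fold change was 0.07 (edgeR adjusted p = 0.368), and it passed only when scaled by library size (adjusted p = 0.0446) or with limma on TPM (adjusted p = 0.0180). Hist3h2a (chr11:58954685-58956830, plus strand), an H2A gene of the small Hist3 cluster whose model overlaps Trim17 on the same strand, rose from 8.08, 7.98 and 7.65 TPM to 11.4, 9.77 and 9.91 (log2 fold change 0.26, SE 0.09, edgeR adjusted p = 0.0387). The H4 gene Hist1h4b had a log2 fold change of 0.99 that missed the threshold (edgeR adjusted p = 0.0598), and so did the H2A gene Hist1h2ad with 1.28 (edgeR adjusted p = 0.0845).

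The choice of scale mattered for this comparison. The median log2 fold change of all genes was 0.00898 by TMM, 0.11 with library size scaling alone and 0.10 to 0.12 with limma on TPM. Library size scaling also moved the split of all calls from 3327 higher and 3547 lower to 5416 and 2326, and that of the histone genes from 7 and 1 to 9 higher and 1 lower. Hist1h4h lost its call without WT replicate 1 or 3 or Kpna6 ΔIBB/ΔIBB replicate 1 or 2 (adjusted p 0.0501 to 0.0859), Hist3h2a without any WT replicate or Kpna6 ΔIBB/ΔIBB replicate 1 (0.0510 to 0.144) and Hist1h2be without any WT replicate or Kpna6 ΔIBB/ΔIBB replicate 1 or 2 (0.0754 to 0.124), and these 3 genes missed the threshold with DESeq2 (0.0898, 0.0768 and 0.125).

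**Figure D3:**
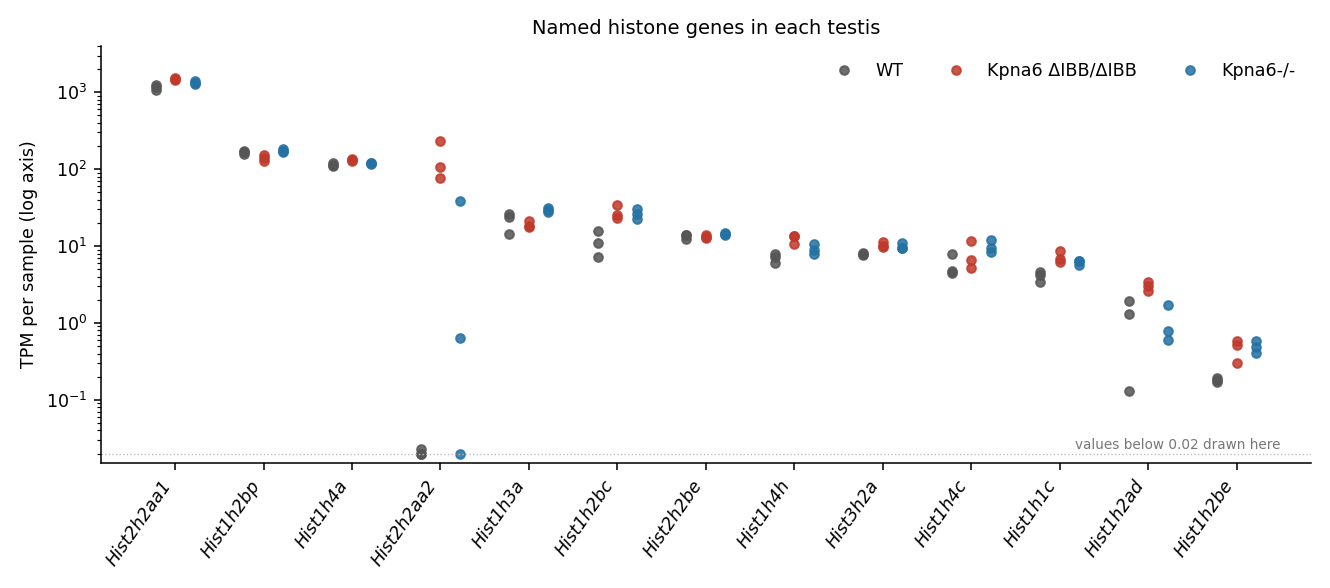
TPM (log axis) of the 13 named histone genes in each testis, ordered by mean level. Points are single samples of WT, Kpna6 ΔIBB/ΔIBB and Kpna6-/-, and values below 0.02 are drawn on the dotted line. Hist1h2bc and Hist1h1c lie higher in all 6 mutant samples than in WT, whereas Hist1h2bp lies lowest in Kpna6 ΔIBB/ΔIBB.

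Kpna6-/- was compared with the same WT samples. This asks which histone genes differ where, by the study's text, importin α7 is missing from Sertoli cells and other organs but kept in germ cells. Of the 23 histone genes that passed the filter, 2 rose and none fell, beside 1.60% of all 18681 genes tested (0.889% higher and 0.712% lower). The 2 genes were Hist1h2bc (log2 fold change 1.22, SE 0.20, edgeR adjusted p = 0.0109) and Hist1h1c (0.61, SE 0.13, edgeR adjusted p = 0.0426). Both had also risen in Kpna6 ΔIBB/ΔIBB, but the comparisons share their WT samples. At an unadjusted p under 0.05 there were 12 of 23 histone genes, beside 14.9% of all genes. The fitted log2 fold change was above 0 for 23 of 23 histone genes, against 50.7% of all genes, with a median of 0.39 (0.00208 over all genes). Here too a member could pass the filter through the group in which it was high, and 39 of the 62 members were not tested. Copies among which reads are split are also not independent of each other, so these counts and the median are a description.

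Further H2A, H2B and H4 genes missed the adjusted threshold in Kpna6-/-. For Hist2h2aa1 the log2 fold change was 0.21 (SE 0.05, edgeR adjusted p = 0.0700) and for Hist3h2a, at 10.8, 9.51 and 9.30 TPM, 0.33 (SE 0.08, adjusted p = 0.0753). Hist1h2be had 1.39 (SE 0.34, edgeR adjusted p = 0.0634). Hist1h2ag was at 10.6, 8.32 and 8.47 TPM against 6.44, 5.62 and 2.76 in WT, without overlap (log2 fold change 0.89, edgeR adjusted p = 0.173). Hist1h4b was at 10.9, 9.53 and 8.10 TPM against 6.11, 3.57 and 2.54 (1.24, edgeR adjusted p = 0.106), and Hist1h4c at 9.30, 12.1 and 8.40 against 4.42, 7.81 and 4.68 (0.86, edgeR adjusted p = 0.233). The genes with the largest TPM after the Hist2h2aa pair differed little, with 0.10 for Hist1h2bp (edgeR adjusted p = 0.446) and 0.08 for Hist1h4a (0.628). Hist1h2bc lost its call without Kpna6-/- replicate 1 or 2 (adjusted p = 0.0626 and 0.0694), and Hist1h1c without any replicate other than WT replicate 1 (0.105 to 0.158). The count of histone genes called fell to 0 without Kpna6-/- replicate 1 or 2 (92 and 113 of all genes called). It was 1 without WT replicate 2 or 3 or Kpna6-/- replicate 3 (135, 145 and 180 of all genes). Without WT replicate 1 it was 3 (518 of all genes). With limma on TPM neither gene passed (adjusted p of 0.180 and 0.225 on log2(TPM + 1)), and with all 9 samples in a single fit Hist1h1c did not (0.0601).

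**Figure D4:**
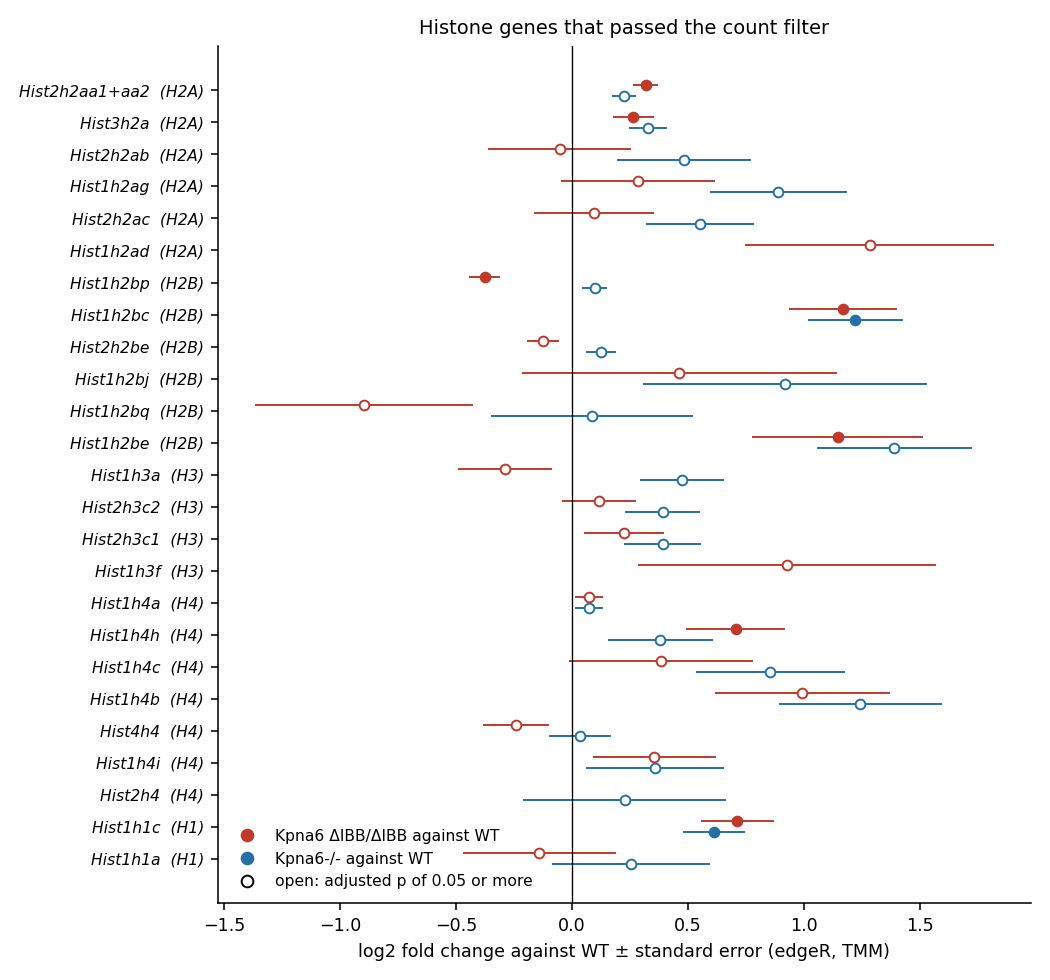
Log2 fold change against WT with its standard error (edgeR, TMM scaling) of the histone genes that passed the count filter, with Kpna6 ΔIBB/ΔIBB in red and Kpna6-/- in blue, and the 2 Hist2h2aa copies as a sum. Filled points have an adjusted p under 0.05. Hist1h2bc and Hist1h1c are filled for both mutants, and Hist1h2bp is filled only for Kpna6 ΔIBB/ΔIBB, on the left of 0.

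The mutants were then compared with each other, which tests where the truncated protein and the gene trap differ. Kpna6 ΔIBB/ΔIBB had 2 genes higher and 3 lower than Kpna6-/- among the 26 histone genes tested, beside 30.3% of all 18752 genes tested (13.5% higher and 16.8% lower), and 7 of 26 had an unadjusted p under 0.05, beside 40.3% of all genes. Hist1h2bp was lower by 0.48 on the log2 scale, written as -0.48 (SE 0.06, edgeR adjusted p = 0.000173). Hist1h3a (chr13:23761853-23762386, minus strand), the H3 gene with the highest level, was at 17.9, 18.2 and 21.2 TPM in Kpna6 ΔIBB/ΔIBB, 29.6, 27.8 and 31.4 in Kpna6-/- and 25.9, 24.0 and 14.3 in WT samples. The mutants did not overlap, the WT samples overlapped those of Kpna6 ΔIBB/ΔIBB, and every WT sample lay below Kpna6-/- (log2 fold change -0.77, SE 0.12, edgeR adjusted p = 0.000425). Hist2h2be was at 12.8, 13.9 and 13.0 against 14.3, 14.9 and 13.9 TPM (-0.26, SE 0.06, edgeR adjusted p = 0.00492), a call that was lost with limma on TPM (adjusted p = 0.225). Higher in Kpna6 ΔIBB/ΔIBB were Hist2h2aa2, which cannot be told from Hist2h2aa1, and Hist1h2ad (chr13:23574381-23574952, plus strand), at 3.00, 2.62 and 3.40 against 1.70, 0.605 and 0.783 TPM (log2 fold change 1.45, SE 0.47, edgeR adjusted p = 0.0354). Hist1h2bc, with a log2 difference between the mutants of -0.06 (SE 0.15, edgeR adjusted p = 0.788), was not shown to differ between them. Hist1h2ad lost its call without any Kpna6 ΔIBB/ΔIBB replicate or Kpna6-/- replicate 2 or 3 (adjusted p 0.0732 to 0.140). In the same comparison 10 of 10 Sertoli cell markers and 5 of 10 spermatogonium markers were higher and 8 of 8 round and 8 of 8 elongating spermatid markers lower, and their part in these differences was not tested. Library size scaling moved the median of all genes from 0.00485 to 0.10, and with limma on TPM it was 0.12 to 0.14. By library size the split of all calls went from 2523 higher and 3150 lower to 4931 and 2016, while that of the histone genes stayed at 2 and 3.

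Many histone genes are near-identical copies, among which the authors' counting can split reads. Genes were therefore also summed where they shared at least 0.5 of the 31-base words of the gene with fewer words. Such links were chained into groups, which gave 22 units, of which 7 were groups that held 47 members in all. Members of a group need not be near-identical. Hist1h2bp shared 44.5% of its words with other genes and Hist1h2bc 33.5%, and their calls in Kpna6 ΔIBB/ΔIBB against WT had opposite directions. These shares were computed on the GENCODE M21 models. The Hist1h2bc model has 1156 bases there but 736 in the deposited data, so its share in the model that was counted can differ. In Kpna6 ΔIBB/ΔIBB against WT, 3 of 13 units rose, namely Hist1h1c, the Hist2h2aa pair and Hist3h2a, and none fell, beside 36.6% of all units tested (17.4% higher and 19.2% lower). The 12 Hist1 H2B copies, of which Hist1h2bp and Hist1h2bc are members, summed to 188, 176 and 185 TPM in WT testes, 158, 184 and 185 in Kpna6 ΔIBB/ΔIBB and 204, 216 and 217 in Kpna6-/- testes. The Kpna6-/- samples lay above all others. This group rose in Kpna6-/- against WT by 0.25 (SE 0.05, edgeR adjusted p = 0.0275), as did Hist1h1c, and 2 of 14 units were called, beside 1.60% of all units (0.889% higher and 0.712% lower). It lost the call without any replicate other than WT replicate 1 (adjusted p 0.0749 to 0.128), and the count was then 0 of the units without WT replicate 2 or any Kpna6-/- replicate. The Hist2h2aa pair had 0.22 in Kpna6-/- (SE 0.05, edgeR adjusted p = 0.0554) and passed without WT replicate 3 (0.0397) and with DESeq2 (0.00225).

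Between the mutants, 3 of 14 units were lower in Kpna6 ΔIBB/ΔIBB and none higher, beside 30.3% of all units (13.5% higher and 16.8% lower). These were Hist2h2be, the Hist1 H2B copies (log2 fold change -0.40, SE 0.06, edgeR adjusted p = 0.000403) and the 9 Hist1 H3 copies (-0.62, SE 0.12, edgeR adjusted p = 0.00218). The H3 copies summed to 30.7, 29.1 and 23.2 TPM in WT testes, 23.0, 20.8 and 27.3 in Kpna6 ΔIBB/ΔIBB and 34.8, 30.7 and 34.8 in Kpna6-/- samples, and the mutants did not overlap while WT overlapped both. The 7 Hist1 H4 copies were at 139, 131 and 130 TPM in WT testes, 165, 170 and 156 in Kpna6 ΔIBB/ΔIBB and 156, 152 and 148 in Kpna6-/-, and did not pass the test against WT for Kpna6 ΔIBB/ΔIBB (0.14, edgeR adjusted p = 0.0931) or Kpna6-/- (0.15, adjusted p = 0.260). The 3 Hist2 H3 copies, Hist2h3b, Hist2h3c1 and Hist2h3c2, were at 8.34, 9.02 and 8.68 TPM in WT testes, 10.2, 10.4 and 10.6 in Kpna6 ΔIBB/ΔIBB and at 10.1 or more in each Kpna6-/- sample. All mutant samples lay above WT in TPM, but the log2 fold changes of 0.18 (edgeR adjusted p = 0.226) and 0.38 (0.116) missed the threshold. The 12 Hist1 H2A copies overlapped between all groups, at 11.6 to 16.7 TPM in WT testes, 13.1 to 17.6 in Kpna6 ΔIBB/ΔIBB and 13.3 to 18.3 in Kpna6-/-. For the Hist2h2aa pair the mutants had a log2 difference of 0.09 (edgeR adjusted p = 0.134), or of 0.19 when scaled by library size (adjusted p = 0.00420).

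Since the libraries were poly(A) selected, the 69 transcript models of the histone genes were grouped by how they end. These are the ends of annotated models to which reads were assigned. The ends of the captured RNA were not examined, so the shares below do not show where that RNA ended. In 17 models the end lay within 100 bases after the stem-loop, 11 ran further past it, 6 had no stem-loop in the window, 14 stopped before it, 1 had no stop codon, and for 20 the length in the files differed from the reference. Models that end near the stem-loop, with Hist2h2aa1 and Hist2h2aa2 among them, held most of the histone TPM, at 74.8% to 77.5% in WT testes, 79.8% to 82.1% in Kpna6 ΔIBB/ΔIBB and 76.6% to 78.3% in Kpna6-/- testes. Models without a stem-loop, mainly Hist1h2bp-202, held 10.6% to 11.6%, 6.53% to 7.71% and 9.47% to 10.9%. None of the 17 models that end near the stem-loop carried AATAAA or ATTAAA in its last 50 bases, against 9 of the 11 that run on and 4 of the 6 without a stem-loop. Of the 49 histone models searched, 28.6% carried such a signal, against 50.2% of 58797 protein-coding models.

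Extended models held 9.74%, 8.69% and 8.48% of the histone TPM in WT testes, 8.04%, 8.45% and 7.84% in Kpna6 ΔIBB/ΔIBB and 8.33%, 8.31% and 8.43% in Kpna6-/- samples. The TPM on these models was itself higher in the mutants, at 136 to 146 in WT testes, 162 to 171 in Kpna6 ΔIBB/ΔIBB and 151 to 157 in Kpna6-/-. Most of it lay on Hist1h4a (mean 122 TPM), whose model runs 108 bases past the stem-loop, just over the limit of 100. The mutants' shares lay under those of WT, by 0.86 percentage points in Kpna6 ΔIBB/ΔIBB (difference -0.86) and 0.61 in Kpna6-/- (difference -0.61). Neither reached significance in a two-sided exact permutation test (p = 0.1 for both), and 0.1 is the smallest p that 3 against 3 samples allow. Between the mutants the difference was -0.24 percentage points (exact permutation p = 0.4). As shares of estimated counts in place of TPM the differences were -0.52 percentage points in Kpna6 ΔIBB/ΔIBB (exact permutation p = 0.6) and -0.078 in Kpna6-/- (exact permutation p = 0.9), and the groups overlapped. With a limit of 300 bases in place of 100, which leaves out Hist1h4a, the differences from WT turned to 0.016 in Kpna6 ΔIBB/ΔIBB and 0.17 in Kpna6-/-.

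**Figure D5:**
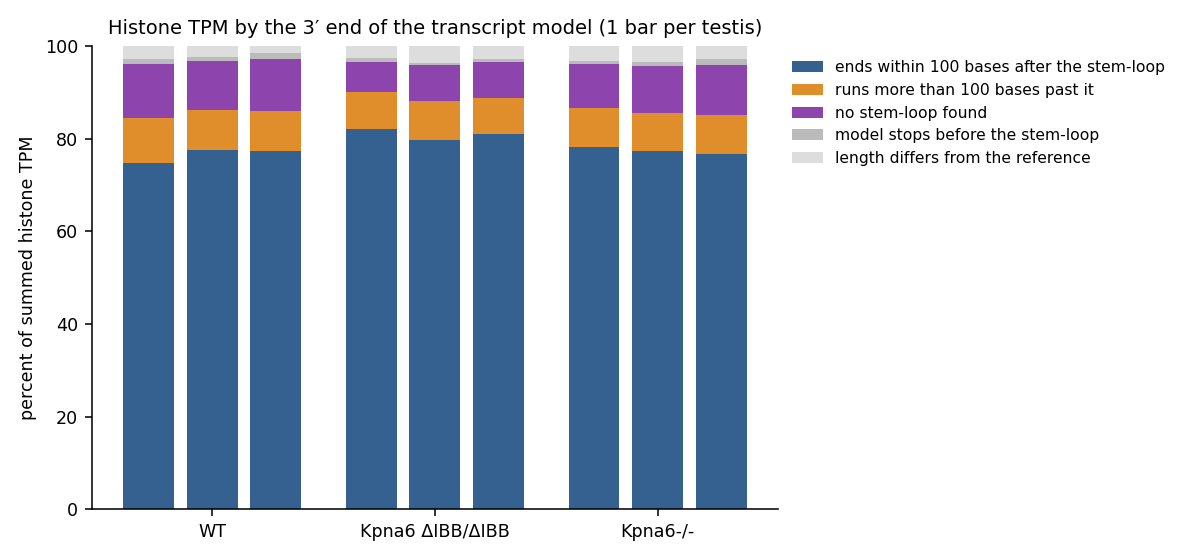
Percent of the summed histone TPM of each testis (1 bar per sample) on transcript models that end within 100 bases after the stem-loop, run more than 100 bases past it, have no stem-loop, stop before it or differ in length from the reference. The share of models without a stem-loop is 6.53% to 7.71% in Kpna6 ΔIBB/ΔIBB and 10.6% to 11.6% in WT.

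Genes that act in histone mRNA processing, DNA replication and histone assembly were read from lists, whose counts of calls stand beside the 36.6% of all genes called in Kpna6 ΔIBB/ΔIBB against WT (17.7% higher and 18.9% lower) and were near or below it. Of 20 genes for histone mRNA processing and decay, 1 rose and 1 fell in Kpna6 ΔIBB/ΔIBB against WT, namely Lsm11, a component of the U7 particle (log2 fold change 0.50, SE 0.11, edgeR adjusted p = 0.00467), and Sympk, a scaffold of the cleavage complex (-0.13, SE 0.04, edgeR adjusted p = 0.0212). Among 24 DNA replication genes, 4 were higher and 2 lower. The replicative helicase subunits Mcm2 (0.41, edgeR adjusted p = 0.00231) and Mcm4 (0.35, adjusted p = 0.0127) rose, and cyclin E2, Ccne2, was lower by TMM (-0.31, edgeR adjusted p = 0.0123) but at 0.12 with limma on TPM. Of 14 histone chaperones, 3 were higher and 1 lower, with Rbbp7 (0.38, edgeR adjusted p = 0.000431), Hira (0.23, adjusted p = 0.0377) and Chaf1b, a subunit of chromatin assembly factor 1 (0.24, adjusted p = 0.0456), among those that rose. The median log2 fold changes of the 3 lists were 0.00, 0.13 and 0.05. In Kpna6-/- against WT edgeR called 0 genes of the 3 lists, with 1, 0 and 1 at an unadjusted p under 0.05. Between the mutants 0, 3 and 2 genes of the lists were higher and 1, 1 and 2 lower in Kpna6 ΔIBB/ΔIBB, beside 30.3% of all genes called. Mcm2 (0.34, edgeR adjusted p = 0.00913) and Rbbp7 (0.36, adjusted p = 4.51e-05) were among those higher, and Sympk (-0.17, adjusted p = 0.00281) was lower. Ccne2 (-0.31, edgeR adjusted p = 0.00677) and Ssrp1 (-0.14, adjusted p = 0.0197) were also lower by TMM, but reached 0.056 and 0.0023 with limma on TPM.

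The 3 testis variants that were kept apart, Hist1h1t, Hist1h2aa and Hist1h2ba, which are made in germ cells independently of S phase, were not called in any comparison. Hist1h1t, the testis linker histone H1t, was at 5.87, 6.21 and 4.59 TPM in WT testes, 3.67, 5.82 and 6.82 in Kpna6 ΔIBB/ΔIBB and 5.22, 6.58 and 7.55 in Kpna6-/- samples. Hist1h2ba, a testis H2B, ranged from 14.5 to 19.1, 12.1 to 16.2 and 11.8 to 22.1 TPM, and Hist1h2aa, a testis H2A, from 12.7 to 20.2, 11.0 to 19.0 and 13.5 to 19.1. The groups overlapped for all 3 genes, and their log2 fold changes in Kpna6 ΔIBB/ΔIBB against WT were -0.15, -0.42 and -0.13 for Hist1h1t, Hist1h2ba and Hist1h2aa.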

How the data were processed

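The 3 wild-type, 3 Kpna6 ΔIBB/ΔIBB and 3 Kpna6-/- testis samples were sequenced from poly(A)-selected RNA as 150-base read pairs with a kit that does not mark strand, so overlapping and antisense genes cannot be told apart. The authors deposited kallisto tables (version 0.45 and mm10 in the submitters' processing notes) with an estimated count and a TPM value for each transcript. The deposited TPM are normalized for transcript length and library total, and the estimated counts are not normalized. The transcript release was not given in the sources used here.

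Of 96626 transcripts, 95301 were assigned to genes by GENCODE M21 and summed. Estimated counts were rounded and tested with edgeR 4.0.16 (quasi-likelihood, TMM, filterByExpr, Benjamini-Hochberg over all genes, threshold 0.05) in R 4.3.3, on the 6 samples of each comparison. Levels are TPM. Python 3.11.15, pandas 2.3.3 and numpy 2.4.6 were used for the remaining steps. The members and gene lists were chosen with earlier results of these data known. The named genes were the 10 members with the highest mean TPM, all called members up to 20 per comparison, and up to 3 called genes per context list (other members named, such as Hist1h4b and Hist1h2ag, were chosen after their values were seen). Stem-loops were searched as a 16-base pattern with at most 1 mismatch in the 150 bases after the stop codon.

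Alternatives were DESeq2 1.42.0, no count filter, library size scaling, limma 3.58.1 on log2(TPM + 1) and log2(TPM + 0.1) with a TPM filter of 0.5, a replicate block, all 9 samples in a single fit, other sharing and length limits, leaving out each sample, and, chosen after seeing the data, the reference transcript lengths. On simulated counts for Kpna6 ΔIBB/ΔIBB against WT (18820 genes tested) 60 of 67 genes changed 1.5-fold, 67 of 67 changed 2-fold and 66 of 66 changed 4-fold were recovered, with 9 false calls. The simulation gave all genes the same dispersion and changed only a small set of genes with high counts. It therefore does not give the recovery for histone genes with low counts. Samples of a group differed by more than sampling noise (chi-square per degree of freedom 3.60 to 6.68).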

Additional observations from a re-analysis of the deposited data

Results flagged for a closer look

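The fit of Kpna6 ΔIBB/ΔIBB against Kpna6-/- asks whether the difference from WT is the same in the mutants, since the shared WT samples drop out. It called 5 of the 26 histone genes tested (19.2%, edgeR adjusted p under 0.05), beside 30.3% of all 18752 genes (13.5% higher and 16.8% lower). After copies were summed it called 3 of 14 units, 2 of them groups of copies, beside 30.3% of all units. The shares of histone genes and units called were thus below the background. Of the called genes, Hist2h2aa2 is not read as a difference. Hist1h2bp (log2 fold change -0.48), Hist1h3a (-0.77) and Hist2h2be (-0.26) were lower in Kpna6 ΔIBB/ΔIBB, and so were the 12 Hist1 H2B copies (-0.40), of which Hist1h2bp is the largest part, and the 9 Hist1 H3 copies (-0.62). Hist1h2ad was higher (1.45), at low counts, a call that was lost when most of the single samples were left out. Hist2h2aa2 passed the same test with a fitted log2 value of 3.16, which is not read as a difference, since its transcript model cannot be told from the end of Hist2h2aa1, 1 of the 3 Kpna6-/- samples was listed at 38.6 TPM and another at 0.000, and the sum of the pair was not shown to differ between the mutants (0.09, edgeR adjusted p = 0.134). In the same comparison 10 of 10 Sertoli cell markers were higher and 8 of 8 round and 8 of 8 elongating spermatid markers lower in Kpna6 ΔIBB/ΔIBB, and their part in these differences was not tested.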

How the results depend on the processing

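The replicate numbers did not pair the samples (correlation of same-numbered deviations -0.0558 to 0.0780). The number of all genes called also moved with the setting and is given beside the histone counts. In the main fit 6874, 299 and 5673 of all genes were called in Kpna6 ΔIBB/ΔIBB against WT, Kpna6-/- against WT and between the mutants. With a replicate block these were 6793, 229 and 6032. The block called 8 histone genes and 3 copy groups in Kpna6 ΔIBB/ΔIBB against WT. It called 1 and 0 in Kpna6-/- against WT, and 4 and 3 between the mutants. In Kpna6 ΔIBB/ΔIBB against WT, DESeq2 called 5 histone genes, beside 6031 of all 18137 genes. With limma on TPM 5 copy groups were called with either pseudocount, beside 5261 and 5267 of all 19253 units. A sharing limit of 0.8 gave 7 called units, beside 6873 of all 18795. The median log2 fold change was 0.10 without a filter, 0.36 by library size and 0.19 with limma on log2(TPM + 1). In Kpna6-/- against WT, 6 histone genes and 4 copy groups were called without a filter. The same fits called 624 of all 26307 genes and 621 of all 26267 units. With limma 0 and 0 were called (25 and 23 of all genes, and 2161 and 2148 at an unadjusted p under 0.05). All 9 samples in a single fit gave 1 and 0, beside 262 of all 19084 genes. The median was 0.20 by limma on log2(TPM + 1). Between the mutants DESeq2 called 3 histone genes, beside 4782 of all 17616 genes. The median there was -0.18 without a filter, -0.16 by library size, and -0.042 and -0.11 with limma. In TMM-scaled CPM the class ratios were 0.32 for H2A, 0.076 for H4 and 0.22 for all in Kpna6 ΔIBB/ΔIBB against WT, and 0.077 for H2A, -0.35 for H2B, -0.064 for H4 and -0.014 for all between the mutants. At a limit of 300 bases the extended share differed from WT by 0.016 and 0.17 percentage points. Signs also turned for Hist1h4c in Kpna6 ΔIBB/ΔIBB against WT without Kpna6 ΔIBB/ΔIBB replicate 2 (-0.075, up to 0.697 without other samples), and with limma for Hist2h2be (0.0016 and 0.0018), Ccne2 (0.121 and 0.125 against WT, 0.054 and 0.056 against Kpna6-/-) and Ssrp1 (0.0023). Leaving out single samples gave 5 to 9, 0 to 3 and 4 to 5 histone genes in the 3 comparisons. Of all genes 5260 to 6497, 92 to 518 and 4394 to 5735 were called in these fits. Copy groups called were 2 to 4, 0 to 2 and 3 to 4. The lowest count of 5 genes came without Kpna6 ΔIBB/ΔIBB replicate 1. Medians were 0.20 to 0.38, 0.28 to 0.45 and -0.26 to -0.16. Extended-share differences were -1.10 to -0.47, -0.86 to -0.23 and -0.41 to -0.11. The cause of these changes was not tested. Of the counts, medians, class ratios and shares recomputed, 231 values kept their direction and call or range, 49 moved and 2 reversed, and of those for single genes and groups 529 stayed, 81 fell below the threshold, 14 passed it and 9 reversed. The count filter left out 35 of the 62 histone genes in every comparison, and their low counts limit what can be said of them.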
